A study of Drosophila sechellia x Drosophila simulans with 8 samples.

Results

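Out of 14176 genes in the deposited gene table, 33 had more RNA in female than in male oenocytes and no such excess in the fat body. The flies were hybrids of Drosophila sechellia and Drosophila simulans (F1 offspring), and RNA was measured by sequencing. The 33 genes were chosen on these same values. Mean TPM, a transcript level per length with a fixed total per library, had to be at least 5 in female oenocytes. The female level plus 1 TPM had to be at least 3 times the male level plus 1 TPM in oenocytes, and under 1.5 times in fat body. A small number of genes described elsewhere (desaturases, Yp2, Adh and its neighbour, HDAC6 and odorant-binding proteins) were left out. The sex difference of these genes in either tissue, and its contrast between tissues, is therefore a description and carries no test.

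The 4 groups were oenocytes and fat body of females and of males, each with 2 libraries numbered as replicates 1 and 2. All flies were 10 days old, all carried 1 genome of each species, and no treatment is named. Tissue came from dorsal abdominal segments, collected at even spacing over the day and night, so each library averages over the daily cycle. The labels give neither the species of the mother nor how many animals went into a library. They do not say that replicates came from separate animals, so p-values measure the spread between these libraries, which may be technical.

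Oenocytes are cells under the abdominal cuticle that make very long-chain hydrocarbons from fatty acids, by elongation, desaturation and reduction. The hydrocarbons coat the cuticle, limit water loss and, in many Drosophila species, act as sex pheromones, and females and males of some species make different ones. The fat body is the neighbouring organ of storage, yolk protein production and systemic immune response. It lies against the oenocytes, and both organs respond to the sex determination pathway.

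Only AttC, which encodes an attacin (an antibacterial peptide), and dro5, which encodes a peptide of the drosomycin family of antifungal peptides, had a symbol other than a GD number. No file gives a name for a GD number, so the other 31 genes are given by number and no role is assigned to them. Members lay on 2L (7 genes), 2R (4), 3L (7), 3R (7) and X (7), with 1 on an unplaced scaffold. The X share was 21.2% of the members and 17.0% of the 5337 genes with at least 5 TPM in female oenocytes. The rule selected 0.233% of all genes and 0.618% of those 5337. Among the 66 genes that passed the oenocyte condition, the other 33 had a fat body ratio of 1.5 or more.

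Depth was 10732070 to 34474092 estimated counts per library, 2275755 to 4642417 aligned reads in genes, and 563434 to 1155753 reads that could be given to a species. The fat body libraries of females and males differed in composition. Scaling factors computed on TPM were 1.02 to 1.03 in all 4 oenocyte libraries, 0.80 and 0.75 in female fat body, and 1.27 and 1.19 in male fat body. Unscaled TPM therefore placed 84.9% of the 5337 genes lower in both female than in both male fat body libraries, and only 5.27% higher. In males, the pair of oenocyte libraries gave estimated counts close to what sampling alone allows. Chi-square was 1.08 per degree of freedom over 3286 transcripts, each matched to 1 gene by identical TPM in all 8 libraries. The same measure was 2.96 to 5.79 for the pairs of the 3 remaining groups. Over all transcripts it was 7.54, against 15.6 to 30.9. The pair was counted as 1 sample in all tests, although its aligned reads differed by more, at 7.68 per degree of freedom.

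The identity of the tissue could be checked only in part. Of 37 oenocyte markers, DesatF, Desat1 and Desat2 were matched, and their summed level in oenocytes was 10519 to 11149 TPM in females and 10035 to 10044 in males. In fat body it was 8872 to 9345 TPM in females and 11235 to 12569 in males. Desat1, the largest part of each sum, was higher in fat body, at 8822 to 12444 TPM against 5214 to 6648 in oenocytes. DesatF and Desat2 were higher in oenocytes. DesatF read 2544 to 2725 TPM in female and 143 to 145 TPM in male oenocytes. Its fat body levels were at most 30.35 TPM in females and 4.3 TPM in males. Desat2 read 1732 to 1776 TPM in female and 4678 to 4679 TPM in male oenocytes. Its fat body levels were at most 23.9 TPM in females and 121 TPM in males. Yp2, a yolk protein gene of the female fat body, stood at 36351 and 37413 TPM in the oenocytes of females and at 88267 and 87132 TPM in their fat body, and was at most 84.7 TPM in males. Adh, an alcohol dehydrogenase abundant in fat body, was at 2536 and 2728 TPM in female oenocytes and at 3405 and 3359 in male oenocytes, while fat body held 6548 and 6378 TPM in females and 34665 and 32458 TPM in males. The oenocyte level of Adh was thus 40.7% of the fat body level in females and 10.1% in males. That of Yp2 was 42.1% in females and 88.7% in males, where Yp2 was low in both tissues. Fbp2 and Lsp1gamma, the other fat body markers matched of a list of 16, were at 0 in female oenocytes. In fat body itself they read at most 0.25 and 0.09 TPM, so their absence from oenocytes says nothing on fat body RNA there. Fat body RNA in the oenocyte samples and yolk protein expression in oenocytes cannot be told apart from these values. In bulk tissue, fewer cells of a type and less RNA per cell cannot be told apart either.

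Few markers of other tissues could be matched. The 5 matched eggshell and germline genes of a list of 26 summed to 0.29 to 0.50 TPM in female oenocytes, with Cp16 and dec-1 at 0. The 11 matched genes of 21 from the male reproductive tract summed to 2.31 to 4.50 TPM in female oenocytes, with 8 of them at 0. The 2 matched haemocyte genes summed to 31.7 to 32.9 TPM in female and 36.5 to 37.3 TPM in male oenocytes. Of 8 genes listed for the female reproductive glands, Est-6, which encodes an esterase, was the 1 matched. It read 44.3 and 40.1 TPM in oenocytes of females and 32.6 and 35.1 TPM in those of males, and its fat body levels were 125 and 122 TPM in females and 320 and 286.5 TPM in males. Both male tissues held its RNA, so it could not serve here as a check for female gland tissue. None of 10 neuron markers was matched, and no member is on any marker list. Sxl, the switch gene of female sex determination, was at 31.7 and 35.5 TPM in oenocytes of females and 5.32 and 5.50 TPM in those of males. Its fat body values were 17.9 and 16.4 TPM in females and 8.18 and 8.85 TPM in males.

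**Figure D1:**
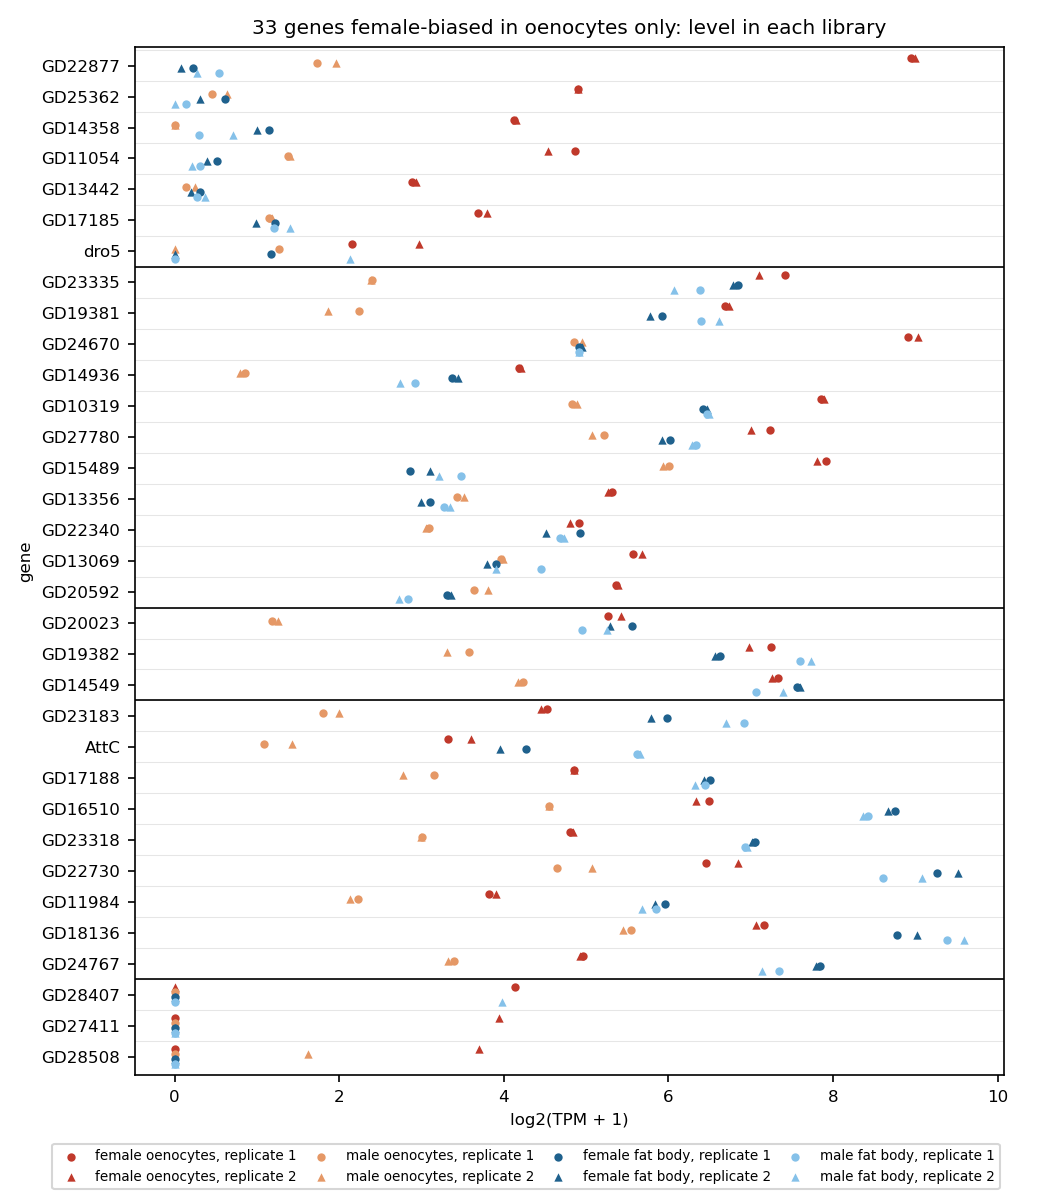
Level of each of the 33 genes in each library, as log2(TPM + 1), with circles for replicate 1 and triangles for replicate 2. Black lines separate, from the top, 7 genes under 2 TPM in fat body, 11 highest in female oenocytes, 3 between the fat body means, 9 highest in fat body and 3 at 0 TPM in 1 female oenocyte library.

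The 33 genes fell into 5 patterns across tissues, drawn up after their values were seen. In 7 genes the mean was under 2 TPM in either fat body group. In 11 genes female oenocytes had the highest mean but fat body of either sex was also above 5 TPM. In 3 genes female oenocytes lay between the means of the fat body groups. In 9 genes female and male oenocytes both had a lower mean TPM than either fat body group. In the last 3 genes 1 of the female oenocyte libraries read 0 TPM, whatever their fat body level.

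GD22877 had the largest sex ratio and nearly the highest level. It stood at 492 and 509 TPM in the oenocytes of females and 2.31 and 2.88 TPM in those of males, while fat body held 0.17 and 0.06 TPM in females and 0.45 and 0.21 TPM in males. Female oenocytes were above every other library by more than the spread of any group. The offset ratio between the sexes, on which the gene was chosen, was 140 in oenocytes and 0.84 in fat body. Aligned reads gave the same order, with 939 and 823 reads in female oenocytes, 7 in each male oenocyte library and 1 in all fat body libraries together.

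The other 6 genes of this pattern reached lower levels. GD25362 read 29.0 and 28.9 TPM in female oenocytes, 0.37 and 0.55 TPM in male oenocytes, and 0.53 TPM or less in fat body. GD11054 read 28.1 and 22.3 TPM in female oenocytes, 1.59 and 1.65 TPM in male oenocytes, and 0.43 TPM or less in fat body. In both, low but measurable RNA was left in male oenocytes.

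GD14358 read 16.4 and 16.7 TPM in female oenocytes and was listed at 0 in both male oenocyte libraries, although fat body held 1.22 and 1.01 TPM in females and 0.23 and 0.64 TPM in males. GD17185, on X, read 11.8 and 12.9 TPM in female oenocytes and 1.22 and 1.28 TPM in male oenocytes. GD13442 read 6.36 and 6.61 TPM in female oenocytes and 0.10 and 0.19 TPM in male oenocytes. A mean under 2 TPM in both fat body groups was found in 9 of the 33 members, these 7 with GD27411 and GD28508, and in 1.84% of the 5337 genes. The rule used the fat body values, so nothing is read from this count.

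The antifungal peptide gene dro5 is the least certain of the 7. It was at 3.45 and 6.85 TPM in female and 1.41 and 0 TPM in male oenocytes, and its fat body levels were 1.25 and 0 TPM in females and 0 and 3.40 TPM in males. The higher male fat body library nearly equalled the lower female oenocyte library, and no read aligned to dro5 in any of the 8 libraries.

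Among the 11 genes highest in female oenocytes, GD24670, on X, was the most abundant. Its level was 482 and 523 TPM in oenocytes of females and 27.9 and 30.0 TPM in those of males. Fat body held 29.2 and 30.0 TPM in females and 29.1 TPM in each male library. On deposited TPM the 3 other groups lay at 1 level. After rescaling, fat body held 36.5 and 40.2 TPM in females and 22.9 and 24.4 TPM in males, a ratio of 1.595. On aligned reads male oenocytes were above male fat body by 1.25 ± 0.29 on the log2 scale (edgeR adjusted p = 0.0204). Female oenocytes lay 16.8 times above male oenocytes on the offset scale.

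In oenocytes GD10319 read 230 and 236 TPM in females and 27.5 and 28.8 TPM in males, and in fat body 84.8 and 88.0 TPM in females and 87.4 and 89.1 TPM in males. Here fat body of either sex lay between the oenocyte groups, so male oenocytes were the lowest group. GD23335 had the same order, with 169 and 136 TPM in female and 4.27 and 4.24 TPM in male oenocytes. Its fat body levels were 114 and 109 TPM in females and 82.4 and 66.0 TPM in males. In female oenocytes 19 and 14 reads aligned to GD23335 (transcript of 566 bases), against 480 and 513 to GD19381 (562 bases), whose TPM was lower.

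GD15489, on the unplaced scaffold, was oenocyte-rich in both sexes. It read 240 and 222 TPM in the oenocytes of females and 63.6 and 60.3 TPM in those of males, while fat body held 6.25 and 7.59 TPM in females and 10.2 and 8.30 TPM in males. Both oenocyte groups lay above all fat body libraries. GD13356 followed a milder form of this order. It read 38.7 and 37.5 TPM in female oenocytes, 9.82 and 10.5 TPM in male oenocytes, and 6.99 to 9.17 TPM in the 4 fat body libraries.

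GD19381 and GD19382, both on 3R, were scarce in male oenocytes and abundant everywhere else. GD19381 was at 102 and 106 TPM in female and 3.71 and 2.63 TPM in male oenocytes, and its fat body levels were 59.5 and 53.8 TPM in females and 83.5 and 97.4 TPM in males. In oenocytes GD19382 read 151 and 125 TPM in females and 10.9 and 8.96 TPM in males, and in fat body 98.1 and 93.9 TPM in females and 193 and 212 TPM in males. On deposited TPM male fat body exceeded that of females in both, and in GD19382 it was the highest group. After rescaling the ratio was 0.99 in GD19381 and 0.75 in GD19382.

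GD20023 and GD14549 completed the 3 genes between the fat body means. GD20023 read 37.4 and 41.8 TPM in the oenocytes of females and 1.27 and 1.39 TPM in those of males, while fat body held 46.1 and 38.3 TPM in females and 30.0 and 37.0 TPM in males. GD14549 was at 161 and 152 TPM in female and 17.8 and 17.1 TPM in male oenocytes, and its fat body levels were 189 and 192 TPM in females and 133 and 167 TPM in males. In both genes male oenocytes stood below the 3 other groups. Those 3 lay close together on deposited TPM, but after rescaling the fat body ratio was 1.96 in GD20023 and 2.01 in GD14549.

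Counted over the 33 genes, both female oenocyte libraries lay above all other 6 libraries in 17, and both male oenocyte libraries lay below all other 6 in 19. Over the 5337 genes these orders were seen in 10.5% and 16.2%. The rule used the oenocyte values, so nothing is read from either count. Female and male oenocyte libraries did not overlap in 30 of the 33, with female above male in 34% of the 5337 genes. In fat body, both female libraries lay above both male ones in 13 members (5.27% of the 5337 genes) and below both in 10 (84.9%). On rescaled TPM the counts were 20 (28% of the 5337 genes) and 3 (37.6%), the last being GD19382, GD23183 and AttC. The rule used the fat body values too, and nothing is read from these counts.

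In 9 genes all 4 fat body libraries lay above all 4 oenocyte libraries, an order seen in 21.9% of the 5337 genes. In oenocytes AttC read 9.04 and 11.2 TPM in females and 1.13 and 1.69 TPM in males, and in fat body 18.3 and 14.5 TPM in females and 48.2 and 49.3 TPM in males. GD22730 read 86.8 and 114 TPM in the oenocytes of females and 24.1 and 32.7 TPM in those of males, while fat body held 613 and 731 TPM in females and 388 and 541 TPM in males. GD18136 was at 142 and 133 TPM in female and 45.9 and 42.6 TPM in male oenocytes, and its fat body levels were 439 and 518 TPM in females and 670 and 773 TPM in males. In each of these the sex order of TPM in oenocytes was clear of the replicate spread. The rule used these values and favours that order, so nothing is read from it. In fat body AttC and GD18136 were higher in males on deposited TPM. After rescaling, AttC stayed so, at a ratio of 0.54, and GD18136 did not, at 1.06. AttC had only 3 aligned reads in each female oenocyte library and 0 and 1 in the male ones, an offset ratio of 1.555. GD18136 had 21 and 32 against 2 and 5 aligned reads, and GD22730 24 and 33 against 2 and 6.

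The remaining 6 were GD23183, GD17188, GD16510, GD23318, GD11984 and GD24767, and GD16510 was the most abundant of them in fat body, at 432 and 408 TPM in females and 342 and 328 TPM in males. The offset sex ratio in oenocytes was 3.0 to 6.01 over the 9 genes, which the rule fixed at 3 or more. In females the oenocyte level was 40.7% of the fat body level for Adh and 42.1% for Yp2. In males it was 10.1% for Adh and 88.7% for Yp2, which was at most 84.7 TPM there. Over all 1169 genes with this order, the median oenocyte ratio was 1.12. A ratio of 3 or more was reached by 17 of them (1.45%), these 9 chosen genes included. The part of fat body RNA in the values of these 9 genes was not tested.

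Other antimicrobial peptide genes were listed after the values were seen. Of 16 such genes, AttC and dro5 met the rule. Mtk, which encodes the antifungal and antibacterial peptide metchnikowin, read 3.81 and 6.79 TPM in oenocytes of females and 6.45 TPM in each such male library. In fat body it read 21.9 and 56.8 TPM in females and 140 and 216 TPM in males. Its oenocyte groups overlapped. Def, which encodes defensin, read 2.80 and 1.63 TPM in female oenocytes and 0 and 0.26 TPM in male oenocytes, below the minimum of the rule, and Drs, which encodes drosomycin, had an offset ratio of 1.004.

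In GD28407, GD27411 and GD28508 the mean of 5 TPM or more came from 1 library. GD28407 read 16.6 and 0 TPM in female oenocytes and 0 and 14.8 TPM in male fat body. GD27411 read 0 and 14.4 TPM in female oenocytes and 0 in all other libraries. GD28508 read 0 and 12.0 TPM in female oenocytes and 0 and 2.07 TPM in male oenocytes. The female and male oenocyte libraries overlapped in all 3. Aligned reads gave another order for GD28508, with 337 and 97 reads in female oenocytes, 85 and 113 in male oenocytes and 2 to 15 in fat body, so the library listed at 0 TPM had the most aligned reads.

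The members nearest the thresholds differed little from the genes beyond them. In oenocytes, GD24767 (3.003), GD18136 (3.06) and GD20592 (3.14) were just inside, and GD12933 (2.94), GD22469 (2.92) and GD16259 (2.89) just outside. In fat body, GD23335, GD14936 and GD24767 were just inside at 1.496, 1.487 and 1.486. GD20962, at 167 TPM in female oenocytes and 3.27 in male oenocytes, was just outside at 1.504, followed by GD29543 (1.52) and GD16135 (1.54).

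**Figure D2:**
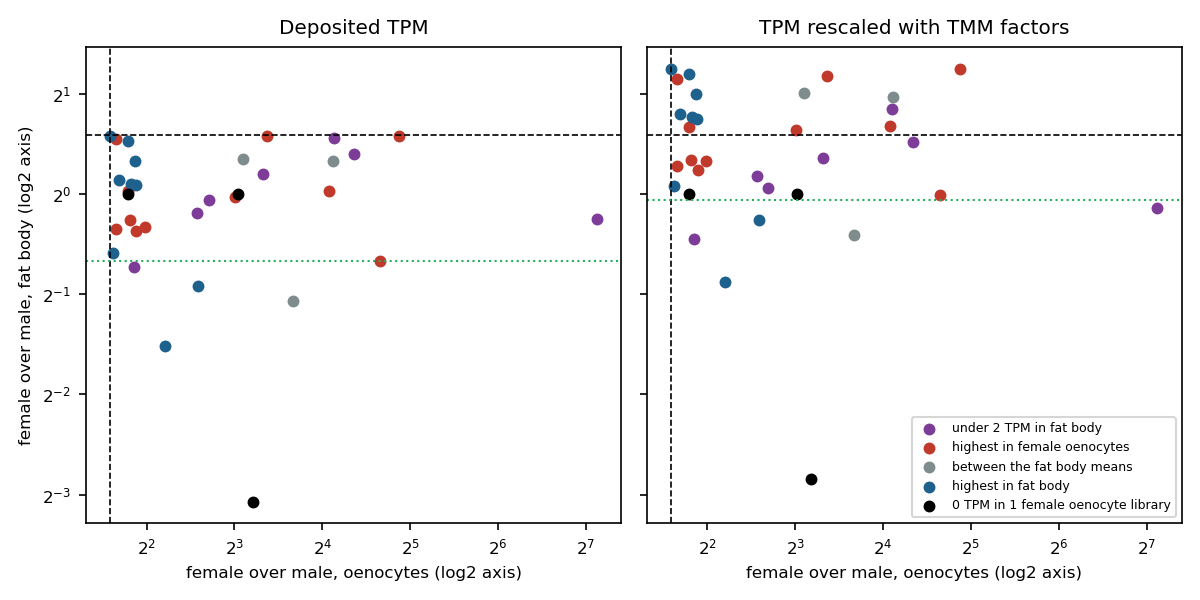
Female-over-male ratio of mean level plus 1 TPM in oenocytes (x) and fat body (y) for the 33 genes, both on log2 axes, with deposited TPM on the left and TPM rescaled with TMM factors on the right. Dashed lines mark the thresholds of 3 and 1.5, and the green dotted line marks the median fat body ratio of the 5337 genes, 0.63 on the left and 0.96 on the right. After rescaling 15 genes lie at or above the fat body threshold, and all 33 stay to the right of the oenocyte threshold.

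The words "in oenocytes only" depended on how fat body TPM was scaled. On deposited TPM the median fat body ratio was 1.0 over the members and 0.63 over the 5337 genes. After rescaling with TMM factors, which set most genes level between libraries, the medians were 1.28 and 0.96. Then 15 of the 33 members had a fat body ratio of 1.5 or more, 11 lay from 1 to 1.5 and 7 were under 1. The direction of the fat body sex difference thus changed with scaling in part of the members, while the oenocyte ratio stayed at 3 or more in all 33.

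By pattern, the fat body ratio reached 1.5 after rescaling in 1 of the 7 genes under 2 TPM in fat body, 6 of the 11 highest in female oenocytes, 2 of the 3 between the fat body means and 6 of the 9 highest in fat body. GD23335 went from 1.496 to 2.38 and GD24767 from 1.49 to 2.36. GD22877 (0.84 and 0.91) and GD19382 (0.48 and 0.75) stayed under 1 on both scales.

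Aligned reads per gene, a separate count from the same libraries, gave an oenocyte ratio of 3 or more in 24 members and above 1 in 31. GD27411 was below 1, at 0.72, and dro5, without reads, was at 1.0. The rule applied to aligned reads selected 64 genes, of which 14 were among the 33, which is 42.4% of the members and 21.9% of the 64. The rule held on deposited TPM, rescaled TPM and aligned reads alike for 10 genes, which are GD11054, GD13356, GD13442, GD17185, GD19381, GD19382, GD22877, GD23183, GD25362 and GD27780. GD22877 is the most abundant of these.

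The tissue difference was fitted within each sex with edgeR's quasi-likelihood test over 14279 transcripts, on estimated counts. A single transcript could be matched for 26 members, and 24 of them passed the filter on low counts. That filter favours genes high in 1 group, and the rule used the same groups, so the following counts are read only as a description. In females 17 of 24 passed an adjusted p under 0.05, 10 higher and 7 lower in oenocytes, where 26% of all transcripts passed (12.9% higher and 13.1% lower). In males 20 of 24 passed, 4 higher and 16 lower in oenocytes, where 21.4% of all passed (10.2% and 11.3%). The median log2 difference of the members was 0.68 in females and -2.91 in males, against 0.02 and 0.00 over all transcripts.

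GD22877 had the widest tissue difference in females, with a log2 value of 11.55 ± 0.30 (SE). In male oenocytes it was still above fat body, by 2.94 ± 0.31. The female value rests on 6719 and 9382 estimated counts in oenocytes and 2 and 1 in fat body, which gives a ratio of 3188, after scaling for library size, with an exact 95% interval of 1091 to 15459, for counting error only. GD11054 (5.67 ± 0.23 in females and 3.22 ± 0.24 in males), GD15489 (4.84 ± 0.18 and 3.17 ± 0.19) and GD20592 (1.86 ± 0.13 and 1.43 ± 0.15) were the others called higher in oenocytes of both sexes.

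In 3 genes the call had opposite directions in the sexes with measurable RNA in all groups. The rule on the sex ratios favours such a contrast between the sexes, so it is given as a description only. The share of all transcripts called in both sexes, in the same or in opposite directions, was not counted. GD10319 was higher in oenocytes in females (1.13 ± 0.09) and lower in males (-1.29 ± 0.12). GD27780 gave 1.02 ± 0.14 and -1.15 ± 0.18, and GD19381 gave 0.79 ± 0.16 and -4.73 ± 0.26. Of these 3, only GD10319 kept its calls in both sexes in all 16 other fits. Both calls of GD27780 were lost on aligned reads, where the female value was 0.46. The female call of GD19381 was lost in 5 of 16, which were aligned reads and each fit without 1 of the female oenocyte or fat body libraries. GD14358 was called higher in females (3.58 ± 0.57), while its male oenocyte counts were 0, so no male fold is given.

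Among the genes called in males alone were GD19382, GD20023 and GD23335, at -4.13 ± 0.22, -4.34 ± 0.37 and -3.85 ± 0.22. Their female values did not pass the threshold, which does not show equal levels. AttC was lower in oenocytes in both sexes, by -0.96 ± 0.23 in females and -4.69 ± 0.37 in males. The female call for AttC was lost in 8 of 16 other fits, among them each fit without 1 of the female oenocyte or fat body libraries, and the male call in none. Every adjusted p behind these calls comes from edgeR with Benjamini-Hochberg adjustment.

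The hybrids allow a measure the rule did not use, the share of reads from each species' copy of a gene. Reads of either allele come from the same cells. Reads of the reference allele were read as D. simulans and those of the alternative allele as D. sechellia. Over all autosomal genes the alternative allele took 62.5 to 65.0% of allele-specific reads in each library, so a value above 50% is the common state here. X genes stood at 54.0 to 58.1% in females and 17.6 to 24.6% in males, and male X genes were left out of the tests. Each male carries 1 X, of 1 species, yet reads of both alleles were counted there. Reads of 1 of the alleles on male X genes were therefore given to the wrong species or gene. With the commoner allele taken as the true one, these are the 17.6 to 24.6% alternative reads. The share of such reads elsewhere was not tested, and the allelic shares below are not corrected for it.

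At least 20 allele-specific reads over the libraries were found for 30 members, all but GD28407, GD27411 and dro5. Their median in oenocytes was 133 reads per gene in females and 12.0 in males, against 53.0 and 37.0 over all 6822 genes with as many reads. In fat body it was 49.5 in females and 50 in males, against 34.0 and 43.5. Power thus differed between groups and between members and all genes, and male oenocytes had the fewest reads by the choice of members. Some members reached 20 reads only through female oenocytes, among them GD13442, GD25362 and GD22877 with 24, 54 and 1429 reads there. No difference between member counts and the shares of all genes is therefore read from the allelic tests.

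In female oenocytes 15 of 30 members departed from equal allele shares at an adjusted p under 0.05, 11 toward the alternative and 4 toward the reference allele, where 21.5% of 6708 genes did so (19.9% and 1.6%). In female fat body 11 of 30 did, 8 and 3, where 17.6% of genes did (16.1% and 1.54%). Among 23 autosomal members in males, 2 did in oenocytes, 1 toward each allele, where 10.1% of 5616 genes did (9.22% and 0.908%). In male fat body 8 of 23 did, 4 and 4, where 22.7% of genes did (21.1% and 1.62%). With each library centred on its own median ratio, the female oenocyte count was 10 of 30, where 12% of genes were called, 4 toward the alternative and 6 toward the reference allele. The split of directions in female oenocytes therefore depended on the centring. The counts also moved with single libraries. In female oenocytes 7 members were called without replicate 1 (15.2% of all genes) and 5 without replicate 2 of that group (7.05%), and in female fat body 5 (5.13%) and 4 (4.01%) without its replicates 1 and 2. In male fat body 3 were called without its replicate 2 (3.79%), and in male oenocytes 0 or 1 without any 1 library of that group or of fat body (5.34 to 8.57%).

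GD22877 was expressed mostly from the alternative allele. Its alternative and reference reads in female oenocytes were 581 and 140 in replicate 1 and 644 and 64 in replicate 2, which is 80.6% and 91.0% alternative. The log2 ratio of alternative to reference was 2.66 ± 0.30, with an edgeR adjusted p of 1.53e-16, and the call held in all 16 other fits. Male oenocytes gave 7 alternative and 4 reference reads in all, a share of 63.6% with a Wilson 95% interval of 35.4 to 84.8%, too few to place.

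GD17185 (91.0% ± 2.47 alternative, SD, n = 2 libraries), GD15489 (89.2% ± 10.8) and GD27780 (79.3% ± 6.61) also leaned to the alternative allele in female oenocytes. Their log2 ratios were 3.32 ± 0.54, 2.95 ± 0.52 and 2.0 ± 0.40, with edgeR adjusted p-values of 7.52e-07, 5.71e-06 and 6.14e-05. The call for GD15489 was lost without either of the female oenocyte libraries, and those for GD17185 without replicate 2 and for GD27780 without replicate 1.

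GD18136 was expressed nearly only from the reference allele. The alternative allele had 0 of 19 and 0 of 29 reads in female oenocytes, which allows a share of up to 6.25% of the 48 reads together. It had 9 of 258 reads in female fat body (3.49%, Wilson 95% interval 1.85 to 6.5%) and 2 of 129 in male fat body (1.55%, 0.43 to 5.48%). The departure was called in all 3 groups, with edgeR adjusted p-values of 4.32e-09, 1.26e-13 and 1.6e-13, and held in every other fit run. Male oenocytes gave 6 reads.

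GD23318 leaned to the reference allele in all 4 groups, the only member called in each. Its alternative share in oenocytes was 25.1 and 27.2% in females and 32.3 and 26.9% in males, with log2 ratios of -1.50 ± 0.26 and -1.32 ± 0.42. In fat body it was 22.7 and 19.8% in females and 20.5 and 23.5% in males, with log2 ratios of -1.90 ± 0.24 and -1.83 ± 0.24. The call in male oenocytes was lost in 6 of 15 other fits, which were DESeq2 and those without male oenocyte replicate 2 or any 1 of the fat body libraries.

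In all, 19 of 30 members were called in at least 1 group and 10 in more than 1, where 33.2% and 18.1% of 6708 genes were. The direction was the same in each group for 9 of these 10, and for 99.6% of the 1212 genes called in more than 1 group, so a shared direction was the common state. GD23183 favoured the alternative allele in 3 groups, with log2 ratios of 1.65 ± 0.46 in oenocytes of females and, in fat body, 1.46 ± 0.40 in females and 1.53 ± 0.39 in males. GD22730 gave 1.80 ± 0.66, 2.83 ± 0.48 and 2.27 ± 0.46 in the same groups. GD10319 did so too, with a share in females of 67.3% ± 0.68 in oenocytes and 86.9% ± 4.97 in fat body (SD, n = 2 libraries). Its female oenocyte call was lost in 4 of 15 other fits, which were centred alleles, DESeq2 and those without either of the female oenocyte libraries. The tenth, GD11984, leaned to the reference allele in fat body of both sexes (-1.66 ± 0.29 in females and -1.50 ± 0.30 in males) and to the alternative allele in male oenocytes (1.37 ± 0.44). The calls for GD23183 were lost with centred alleles. Each was also lost without replicate 2 of its group, and the female fat body call without replicate 1 as well. For GD22730 the female oenocyte call was lost in 9 of 16 other fits. Of these fits, 6 left out 1 of the female oenocyte or fat body libraries. The fat body calls of GD22730 were each lost without replicate 2 of their group.

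**Figure D3:**
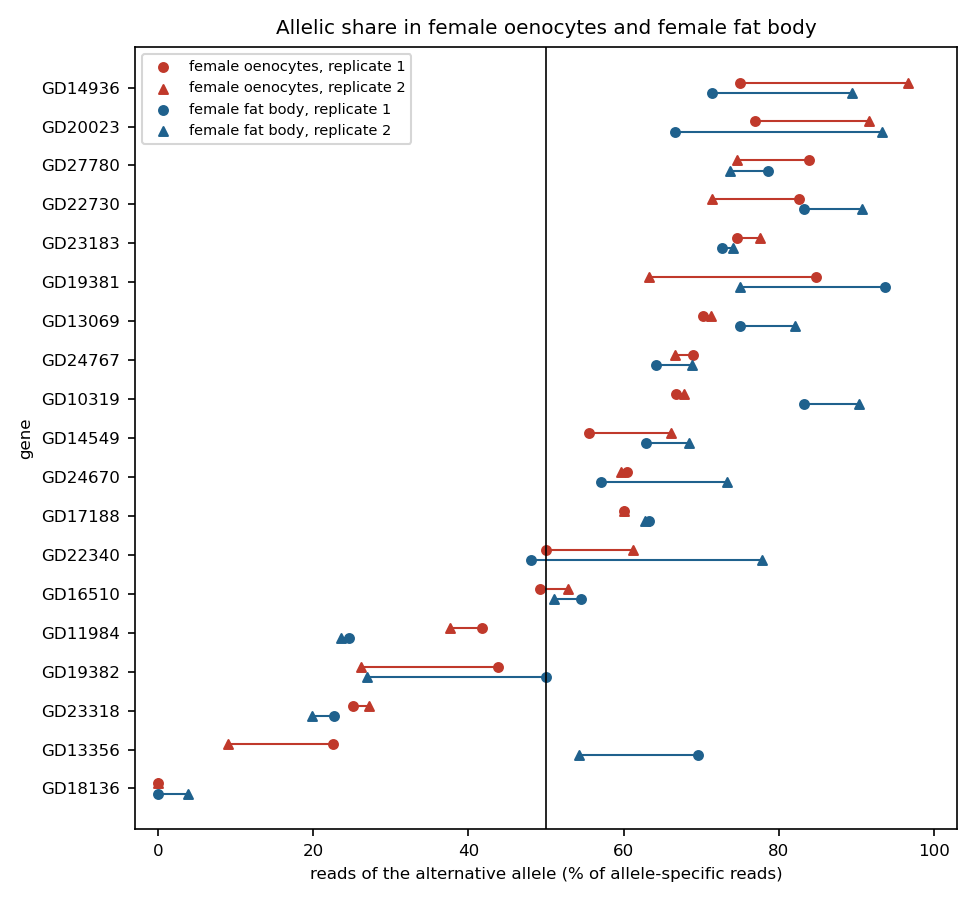
Share of allele-specific reads from the alternative (D. sechellia) allele in each library of female oenocytes and female fat body, for the 19 members with at least 20 such reads in each of these groups, with circles for replicate 1 and triangles for replicate 2 and a line at 50%. In 16 of the 19 genes the group means lie within 15 percentage points of each other, and GD13356 stands apart with 22.5 and 8.97% in oenocytes against 69.6 and 54.3% in fat body.

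The allelic ratio itself was then compared between tissues in females. The test passed for 1 of 30 members, where 0.298% of 6708 genes passed (0.164% with a higher and 0.134% with a lower alternative share in oenocytes). GD13356 had 49 alternative of 218 reads and 14 of 156 in the female oenocyte libraries, which is 22.5% and 8.97%. In female fat body it had 16 of 23 and 19 of 35, which is 69.6% and 54.3%, and the groups did not overlap.

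The log2 ratio of alternative to reference in GD13356 was lower in oenocytes by -3.09 ± 0.67, with an edgeR adjusted p of 0.00192. Only 58 allele-specific reads stand behind the fat body value, and the call was lost in 6 of 15 other fits. These were DESeq2 (adjusted p = 0.146) and the edgeR fits without female oenocyte replicate 2 (adjusted p = 0.777) or without any 1 of the 4 fat body libraries. Over the 15 fits the adjusted p ranged from 7.96e-05 to 1 and the log2 difference from -3.97 to -2.42. In males the alternative share was 46.7 and 32.0% in oenocytes and 47.6 and 57.1% in fat body, which do not overlap but lie closer.

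Between female and male oenocytes the allelic ratio was called for 0 of 23 autosomal members by edgeR, where 0.0356% of 5616 genes were called (0.0178% in each direction). GD11984 came nearest, with 41.7 and 37.6% alternative in female oenocytes against 79.0 and 68.2% in male oenocytes, a log2 difference of -1.97 ± 0.53 and an edgeR adjusted p of 0.191. The groups did not overlap, and fat body stood at 24.6 and 23.5% in females and 24.8 and 27.6% in males. Taken with 8 libraries apart, where male oenocytes count as 2 samples, the difference was -2.02 with an edgeR adjusted p of 0.0222. Over 16 other fits the adjusted p ranged from 0.00133 to 1, and it passed in 3, among them the fit without male oenocyte replicate 2 (adjusted p = 0.0471). The higher share in male oenocytes was not seen in the species copies of kallisto, where the log2 ratio in male oenocytes was -1.15 in place of 1.37.

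On X, the 6 members with at least 20 allele-specific reads had fewer alternative than reference reads in male fat body, from 0 of 19 in GD24670 to 5 of 17 in GD17185 (29.4%). There GD16510 stood at 24.4 and 23.9% and GD24767 at 23.6 and 20.8%, where X genes as a whole stood at 24.6 and 22.1%. In females these were at 49.2 and 52.8% and at 69.0 and 66.7% in oenocytes. GD15489, on the unplaced scaffold, had 11 of 12 reads from the reference allele in male oenocytes and 158 of 182 from the alternative allele in female oenocytes.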

How the data were processed

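RNA-seq was made from 8 libraries, 2 per group. The authors' deposited tables hold TPM per gene, which chose the members, and estimated counts per transcript and species copy from kallisto 0.44.0. They also hold whole-number read counts per gene and allele, with STAR 2.5.1b named beside kallisto in the submitters' processing notes. The genome build, index, strand setting and variant filters are not given in the sources used here. The log2 allele ratio that the authors deposited beside these counts was not used. Members and lists were chosen with earlier results of these data known.

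Genes were matched to a transcript by identical TPM in all 8 libraries in the gene and transcript tables, which paired 7776 genes with 1 transcript each. Species copies were summed, rounded and tested with edgeR 4.0.16 (R 4.3.3; TMM, filterByExpr, glmQLFit, glmQLFTest), with 1 term per group and the 2 male oenocyte libraries summed, which leaves 7 samples. That lone sample is assumed to vary like the others. Allele counts were tested in 1 such fit with 2 columns per sample, no scaling between them, and at least 20 reads. Adjusted p-values (Benjamini-Hochberg) run over all transcripts or genes tested, with calls under 0.05. SE was back-calculated from each log2 value and its F statistic, so it restates the test. The scripts were tested on simulated data. Alternatives used DESeq2 1.42.0 and limma 3.58.1. Intervals and limits (3 counts) cover counting error only.

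Reference was read as D. simulans because the reference share of a gene followed that of its D. simulans copy among the kallisto values, with Pearson's r of 0.706 to 0.863 across genes (465 to 810 in a library), which are not independent. Genes were named by a rule: the members with a symbol, the 12 highest in female oenocytes, the 8 with the largest oenocyte ratio, the 8 highest in fat body, the 3 on each side of each ratio threshold, and up to 5 called per test. GD11054, GD13069, GD13442, GD22340, GD23183, GD27411, GD28407 and GD28508 were named after their values were seen. Planned lists of lipid synthesis and other product names could not be matched, since the files give no product names. Whether members share reads with near-identical genes was not analysed here. Replicate numbers did not pair the libraries (correlations of deviations -0.008 to 0.054).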

Additional observations from a re-analysis of the deposited data

Results flagged for a closer look

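GD13356 was the member whose allelic ratio passed the test of a difference between tissues. In females the log2 ratio of alternative to reference reads differed by -3.09 ± 0.67 between oenocytes and fat body, with an edgeR adjusted p of 0.00192. Both oenocyte libraries lay below both fat body libraries, at 22.5 and 8.97% against 69.6 and 54.3% alternative. The call was lost without female oenocyte replicate 2 (edgeR adjusted p = 0.777), without any 1 of the 4 fat body libraries and with DESeq2, and the adjusted p over 15 other fits ranged from 7.96e-05 to 1.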

How the results depend on the processing

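The rule selected 33 genes on deposited TPM, 18 on rescaled TPM, 64 on aligned reads and 21 with an offset of 5 TPM, and 35 to 49 under the other 4 settings. Called members in the tissue difference in females were 17 of 24, where 26% of all transcripts were called. With limma on log2(TPM + 1) they were 26 of 33, where 69% of genes were called. Female counts fell in part of the fits without a single library, and male counts changed little. Allelic calls in female oenocytes were 15 (21.5% of all genes) and 8 with DESeq2 (13.3%). In female fat body they were 11 (17.6%), 6 with centred alleles (9.33%) and 7 with DESeq2 (9.93%). In male oenocytes they were 2, 1 with centred alleles, 0 with DESeq2, 5 of 10 tested with the species copies of kallisto (where 37% of genes were called) and 0 to 2 without single libraries, and in male fat body 8, and 3 to 9. The allelic ratio between tissues was called for 1 member (0.298% of all genes) and for 0 with DESeq2 (0.0745%). It was called for 0 of 14 with kallisto copies (0.457%), which do not measure that member. Without some of the single libraries that call was lost. Between the sexes it was called for 0 (0.0356% of all genes), for 1 with 8 libraries apart (0.0356%) and for 1 with the replicate block (0.249%). Leaving out single libraries moved that count too. For GD11984 the log2 ratio in male oenocytes reversed from 1.37 to -1.15 with kallisto copies. The cause of these changes was not tested. With the replicate block, the numbers being shared only by name, 17 (females) and 20 (males) of 23 members were called in the tissue differences. Of all transcripts 32.2% and 32% were called there. Of 74 single calls, 33 held in every alternative that measured them, 22 of 37 tissue calls and 11 of 37 allelic ones. Groups of 2 libraries and a median of 12.0 allele-specific reads per member in male oenocytes limit what could be detected there.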
